A study of Homo sapiens with 6 samples.

Results

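The 36 genes described here build iron-sulfur clusters, make heme, or take up, store, export and sense iron, and they were listed by gene symbol, with earlier results of these data known. All 36 had a row among the 67060 genes of the count table, and 35 passed the filter on low counts. They were compared in SH-SY5Y cells, a human neuroblastoma line, infected with either of 2 adenoviruses and lysed after 24 h for rRNA-depleted, strand-retaining RNA sequencing. ERRγ is an orphan nuclear receptor known for switching on nuclear genes of mitochondrial respiration, and the comparison asked which genes changed when it was overexpressed.

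Ad CMV GFP, the control, carried green fluorescent protein behind the cytomegalovirus promoter, and Ad CMV 3xFlag-*Esrrg* carried the Flag-tagged mouse coding sequence for ERRγ behind the same promoter. Each group held 3 libraries, and the labels number them 1, 3 and 4 in the control and 2, 3 and 4 with ERRγ. All came from 1 cell line that received a virus, so no uninfected library stood beside them, and nothing in the labels said whether libraries came from separate cultures. The p-values therefore measure the spread between these libraries, which may be technical. The labels name the cells neuronal progenitors. Of 11 adrenergic neuroblastoma markers, 9 had at least 10 counts in every library, whereas *TH* and *CHGA* were listed at 0 in all 6. Of 4 neural progenitor markers, *NES* and *SOX2* passed that level and *SOX1* was at 0, and 6 of 6 mesenchymal markers passed it. Expression is given as CPM, gene counts scaled to a library of 1e+06 reads and normalised by the trimmed mean of M values (TMM). Of the mesenchymal markers, *LUM* and *DCN* were called lower (log2 fold changes of -1.15 and -0.76) and 0 of 6 higher, while the summed level was 5632 to 5780 CPM in Ad CMV GFP and 5977 to 6284 CPM in Ad CMV 3xFlag-*Esrrg*, with *FN1*, which was not called, going from a mean of 1956 to 2691 CPM. Of the adrenergic markers, *DBH* (-2.64) and *STMN2* (-0.68) were called lower and *PHOX2A* (0.81) and *GAP43* (0.89) higher, with summed levels of 840 to 905 and 652 to 876 CPM. No progenitor marker was called, and their summed level was 314 to 373 and 392 to 487 CPM. The part of these differences in the results below was not tested. Macrophage markers, from a cell type that recycles iron, summed to at most 3.36 CPM and hepatocyte markers to at most 0.299 CPM in any library.

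Iron-sulfur clusters are cofactors of iron and sulfide that are built in mitochondria on a scaffold protein, from sulfur that a desulfurase takes from cysteine, and are then passed to mitochondrial enzymes and the respiratory complexes. A separate assembly line in the cytosol matures clusters for DNA repair and replication enzymes. Heme, the iron-porphyrin cofactor of cytochromes, is made by a chain of enzymes that starts and ends in mitochondria. Cells balance iron mainly after transcription, through iron regulatory proteins that bind hairpins in the untranslated regions (UTRs) of ferritin, ferroportin and transferrin receptor mRNAs, so an mRNA level is only part of the account of these genes.

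The genes that carry such hairpins are shown first, because their mRNAs are what a count table holds of that regulation. Each line below gives a 29-base stretch of transcript that contains the loop CAGTGN between complementary flanks, read from GRCh38 with GENCODE 44 UTR annotation and printed 5′ to 3′ on the strand of the gene, with the 6-base loop in capitals.
*FTH1* 5′ UTR, chr11:61967574-61967602, minus strand: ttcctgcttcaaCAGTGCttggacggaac
*FTL* 5′ UTR, chr19:48965335-48965363, plus strand: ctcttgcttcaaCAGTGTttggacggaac
*SLC40A1* 5′ UTR, chr2:189580661-189580689, minus strand: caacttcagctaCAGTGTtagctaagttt
*TFRC* 3′ UTR, chr3:196050463-196050491, minus strand: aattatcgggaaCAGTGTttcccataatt
*TFRC* 3′ UTR, chr3:196050979-196051007, minus strand: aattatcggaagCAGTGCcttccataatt
The stems of both ferritin sites had the same letters next to the loop. *TFRC* held 4 sites by this pattern, of which 2 are shown, and *SLC11A2* held none, which says only that these letters were not found in its annotated UTRs.

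Of the 35 genes tested, 18 (51.4%) rose with Ad CMV 3xFlag-*Esrrg* and 0 fell, where a call needed an edgeR adjusted p below 0.05 and a change of at least 1.5-fold. Across all 24500 genes tested, 17.3% were called higher and 16.8% lower (34.1% in either direction), and across the 13746 protein-coding genes of the same fit the shares were 25.9% and 12.4%. At an unadjusted edgeR p below 0.05, 28 of the 35 were higher and 2 lower. By that measure 6529 of the 24500 genes were higher and 6883 lower, and 5569 and 3498 of the 13746 protein-coding genes. DESeq2 also called 0 of the 35 lower, where it called 13.1% of all genes lower. The 17 genes that were not called were made up of 11 with an adjusted p below 0.05 and a change under 1.5-fold, and 6 that missed the adjusted p. On the adjusted p alone, 27 of the 35 were higher and 2 lower, where 24.3% and 23.5% of all genes were. Of the 13746 protein-coding genes, 5167 were higher and 3078 lower by that measure. The median log2 fold change of the 35 was 0.60, against -0.10 over all genes and 0.12 over protein-coding genes, and the values ran from -0.47 to 1.62. Normalised CPM did not overlap between groups in 29 of the 35, where 58.1% of all genes tested and 9659 of the 13746 protein-coding genes did not. With library size as the only scaling, 9 were called higher and 2 lower, the 2 being *FBXL5* and *SLC11A2*, where 8.98% and 30.9% of all genes were called.

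Libraries differed within the Ad CMV 3xFlag-*Esrrg* group. Reads assigned to genes were 24969759 to 29700980 in Ad CMV GFP, and 26513620, 39723262 and 40859666 in replicates 2, 3 and 4 of Ad CMV 3xFlag-*Esrrg*. Reads outside annotated genes took 51.3% to 52.2% of each Ad CMV GFP library but 46.6%, 31.6% and 29.5% of those of Ad CMV 3xFlag-*Esrrg*. The part of this shift in the results below was not tested. A further fit took the unassigned share of each library as a covariate. That share was lower in every Ad CMV 3xFlag-*Esrrg* library than in any control, so the fit cannot tell the shift from the virus. It called 5 of the 35 genes higher, namely *ISCU*, *BOLA3*, *CIAPIN1*, *ALAS1* and *STEAP3*, where 7.24% of all genes were called higher. The targeted gene followed the labels. *ESRRG*, whose row can also take reads of the mouse transgene, had 2357, 2796 and 2876 counts in Ad CMV GFP and 15228, 25994 and 26497 in Ad CMV 3xFlag-*Esrrg*, a log2 fold change of 3.02 ± 0.14 (SE, n = 3 libraries a group; edgeR adjusted p = 6.3e-07).

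Replicate 2 of Ad CMV 3xFlag-*Esrrg* stood nearer to the control than its partners. It was the lowest of the 3 Ad CMV 3xFlag-*Esrrg* libraries in 32 of the 35 tested genes and in 18 of the 18 called, with a median log2 ratio to the Ad CMV GFP mean of 0.587 over the called genes, against 1.06 and 1.11 in replicates 3 and 4. It lay above the highest Ad CMV GFP library in 17 of the 18, but it was itself part of the fit that called them. Its position was not particular to these genes. On the first principal component of all genes tested, the axis along which libraries differed most, it lay at -24.4. Replicates 3 and 4 lay at -71.97 and -78.7 there, and the Ad CMV GFP libraries at 53.5 to 64.6. The share of all genes in which replicate 2 was the lowest was not counted. Without replicate 2, 25 of the 35 genes were called higher and the median log2 fold change was 0.84. Calls over all genes also rose in that fit, to 22.9% higher and 20.3% lower. The 7 added genes were *HSCB*, *NFU1*, *NUBP1*, *MMS19*, *FECH*, *TFRC* and *SLC40A1*. Below, CPM of 3 libraries are given in the order of their replicate numbers, first for Ad CMV GFP and then for Ad CMV 3xFlag-*Esrrg*, and log2 fold changes of Ad CMV 3xFlag-*Esrrg* over Ad CMV GFP are given ± SE with edgeR adjusted p. A bulk library cannot tell fewer cells that use a gene from less RNA per cell.

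**Figure D1:**
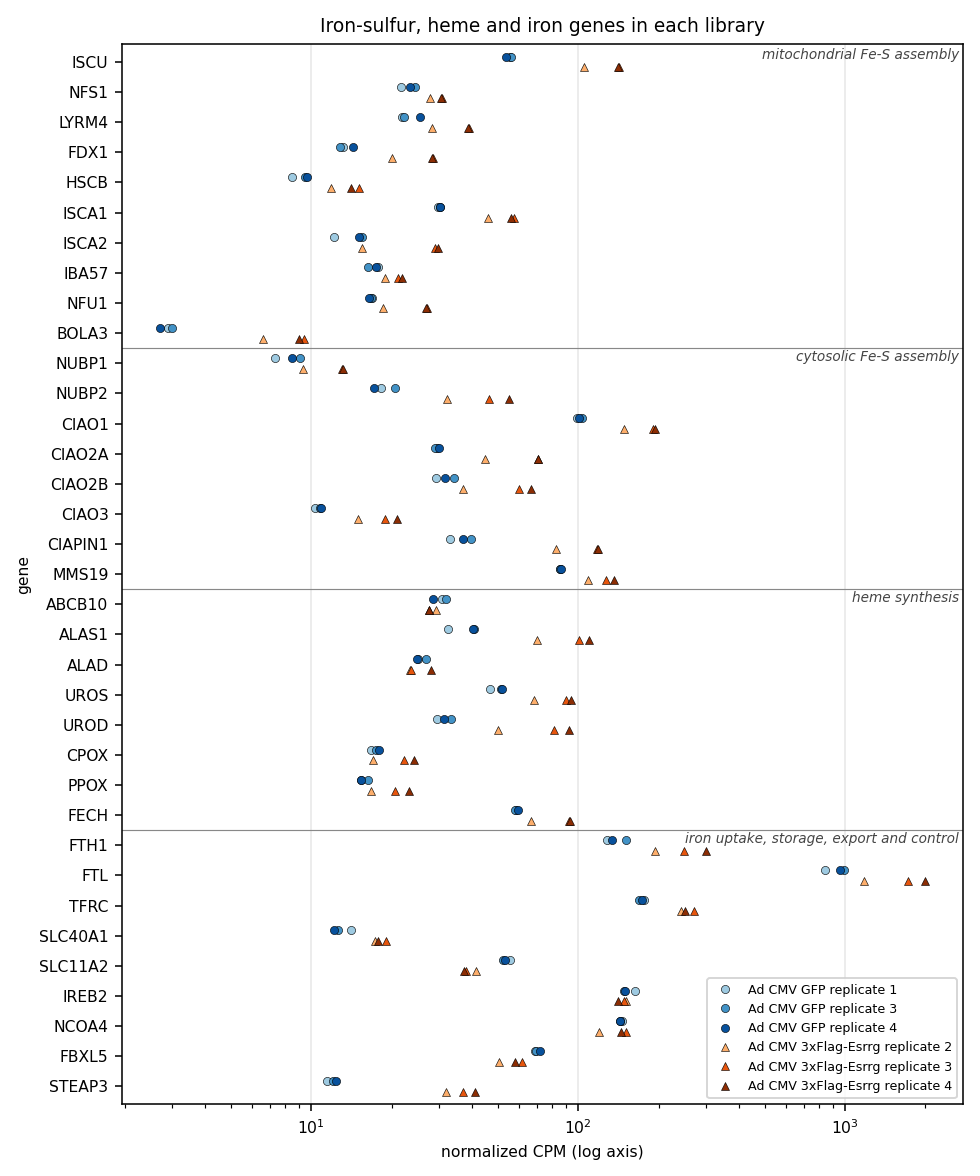
TMM-normalised CPM (log axis) of the 35 tested genes, grouped by class, with 1 point for each of the 6 libraries. The replicates of Ad CMV GFP lie close together, and replicate 2 of Ad CMV 3xFlag-*Esrrg* is the lowest of its group in 32 of 35 genes.

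Within mitochondrial cluster assembly, 6 of the 10 genes tested (60%) rose and 0 fell, with a median log2 fold change of 0.70. Of protein-coding genes, 25.9% were called higher and 12.4% lower. *ISCU* (chr12:108562582-108569368 in GRCh38), the scaffold on which a new cluster forms, had 55.4, 55.8 and 53.9 CPM in Ad CMV GFP and 105, 142 and 141 CPM in Ad CMV 3xFlag-*Esrrg*. Every Ad CMV 3xFlag-*Esrrg* library was well above every control, at a log2 fold change of 1.24 ± 0.12 (SE; adjusted p = 5.5e-05). *NFS1*, the cysteine desulfurase that supplies the sulfur, had 21.6, 24.5 and 23.4 CPM against 27.9, 30.8 and 30.6 CPM. Its groups did not overlap, but at 0.36 ± 0.10 (adjusted p = 0.011) it was under 1.5-fold and was not called. *LYRM4*, the small partner that stabilises the desulfurase, had 21.9, 22.2 and 25.5 CPM in Ad CMV GFP and 28.2, 38.9 and 38.5 CPM in Ad CMV 3xFlag-*Esrrg*. It rose by 0.60 ± 0.13 on the log2 scale (adjusted p = 0.0040), close to the 1.5-fold line, and its call was lost in 9 of 15 alternative fits, among them those without replicate 1 (0.56) or 3 (0.57) of Ad CMV GFP or without replicate 3 (0.53) or 4 (0.54) of Ad CMV 3xFlag-*Esrrg*.

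The scaffold was set against its sulfur donor within each library. The ratio of *ISCU* to *NFS1* counts, which needs no scaling between libraries, was 2.56, 2.27 and 2.30 in Ad CMV GFP and 3.76, 4.63 and 4.62 in Ad CMV 3xFlag-*Esrrg*. The groups did not overlap in that ratio, and with 3 libraries against 3 an exact two-sided permutation test cannot go below 0.1. These count ratios compare genes chosen after their values were seen.

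*FDX1*, a mitochondrial ferredoxin that hands on electrons, had 13.1, 12.8 and 14.3 CPM in Ad CMV GFP and 19.97, 28.6 and 28.2 CPM in Ad CMV 3xFlag-*Esrrg*, and rose by 0.93 ± 0.14 (adjusted p = 4.7e-04). *FDX2*, the ferredoxin best known for cluster assembly, had 3 counts or fewer in every library and could not be tested. Of its annotated exon bases, 73.4% also belong to other genes on the same strand, and reads that fit more than 1 gene were not counted, so its transcript level is not known from this table. *HSCB*, the co-chaperone that helps to move a cluster off the scaffold, had 8.48, 9.47 and 9.64 CPM against 11.9, 15.1 and 14.1 CPM, without overlap between groups, and 20.2% of its exon bases lie in a gene on the opposite strand. At 0.58 ± 0.13 (adjusted p = 0.0037) it was just under 1.5-fold, and it was called higher in 8 of 15 other fits, among them DESeq2 and those without replicate 3 (0.60) or 4 (0.61) of Ad CMV GFP, or without replicate 2 of Ad CMV 3xFlag-*Esrrg* (0.77).

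The late-acting factors ranged widely. *BOLA3* (chr2:74135400-74147912), which serves the delivery of clusters to lipoate-dependent enzymes, had 2.91, 3.01 and 2.72 CPM in Ad CMV GFP and 6.58, 9.36 and 8.98 CPM in Ad CMV 3xFlag-*Esrrg*, the largest change of this class at 1.53 ± 0.17 (adjusted p = 9.2e-05). *NFU1*, the carrier that works beside it, had 16.8, 16.7 and 16.4 CPM against 18.5, 27.1 and 26.9 CPM. The latter was not called at 0.54 ± 0.14 (adjusted p = 0.010), and the ratio of *BOLA3* to *NFU1* counts went from 0.173 ± 0.0074 in Ad CMV GFP to 0.345 ± 0.011 in Ad CMV 3xFlag-*Esrrg* (SD, n = 3 each). Processed pseudogenes of *NFU1* held 168, 169 and 198 counts in Ad CMV GFP and 81, 41 and 38 in Ad CMV 3xFlag-*Esrrg*, and their part in the *NFU1* value was not tested.

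*ISCA1* and *ISCA2*, a pair needed for clusters of the larger, 4-iron kind, both rose. *ISCA1* had 29.8, 30.3 and 30.3 CPM in Ad CMV GFP and 45.8, 57.6 and 56.1 CPM in Ad CMV 3xFlag-*Esrrg*, a log2 fold change of 0.82 ± 0.11 (adjusted p = 2.0e-04). *ISCA2* had 12.2, 15.5 and 15.1 CPM against 15.4, 28.96 and 29.9 CPM, so that replicate 2 of Ad CMV 3xFlag-*Esrrg* sat level with the highest control and the groups overlapped. Its log2 fold change was 0.80 ± 0.22 (adjusted p = 0.011), and the call was lost without replicate 1 of Ad CMV GFP (0.70, adjusted p = 0.054) or replicate 3 of Ad CMV 3xFlag-*Esrrg* (0.68, adjusted p = 0.055). In the fit with the unassigned share as covariate its log2 fold change was -0.18. *IBA57*, their partner protein, had 17.7, 16.3 and 17.4 CPM against 18.9, 21.2 and 21.8 CPM and missed the threshold at 0.27 ± 0.10 (adjusted p = 0.051).

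**Figure D2:**
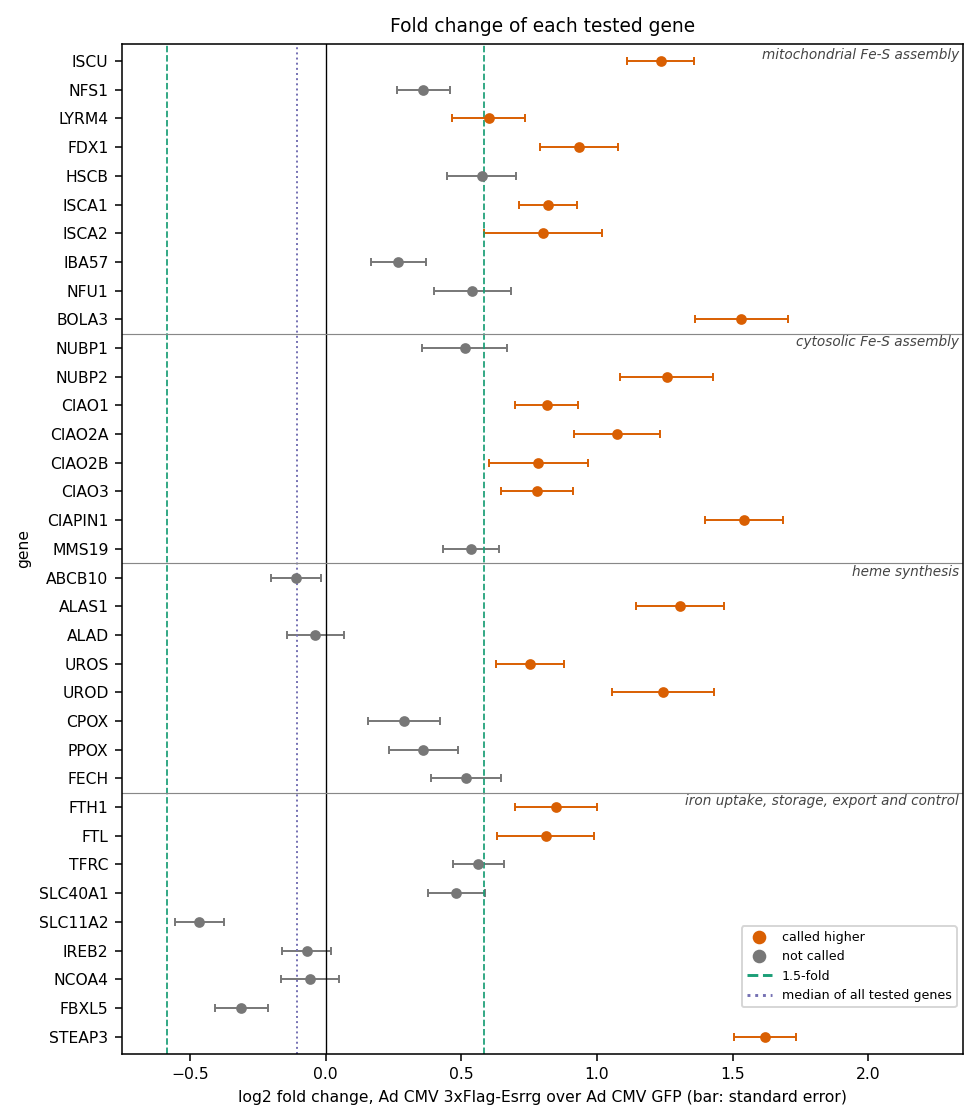
Log2 fold change of Ad CMV 3xFlag-*Esrrg* over Ad CMV GFP for the 35 tested genes by class, with bars for the standard error, a dashed line at 1.5-fold and a dotted line at the median of all genes tested (-0.10). The 18 called genes lie between 0.60 and 1.62, and the 17 others between -0.47 and 0.58.

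In cytosolic cluster assembly, 6 of 8 genes (75%) were called higher and 0 lower. After correction for GC content and length, only *NUBP2*, *CIAO1*, *CIAO2A* and *CIAPIN1* of these were called, so the share depends on the processing. Of protein-coding genes, 25.9% were called higher and 12.4% lower. The median log2 fold change of the class was 0.80. *CIAPIN1* (chr16:57428187-57447420), which feeds electrons into the cytosolic machinery, had 32.99, 39.6 and 37.2 CPM in Ad CMV GFP and 82.9, 118 and 119 CPM in Ad CMV 3xFlag-*Esrrg*, and rose by 1.54 ± 0.14 (adjusted p = 3.9e-05). The scaffold pair was unequal. *NUBP2* had 18.2, 20.5 and 17.2 CPM in Ad CMV GFP and 32.2, 46.4 and 54.9 CPM in Ad CMV 3xFlag-*Esrrg*, and rose by 1.26 ± 0.17 (adjusted p = 2.6e-04). *NUBP1*, its partner in the scaffold, had 7.31, 9.08 and 8.46 CPM against 9.28, 12.98 and 13.1 CPM and was not called at 0.51 ± 0.16 (adjusted p = 0.020). The ratio of *NUBP2* to *NUBP1* counts was 2.26 ± 0.23 in Ad CMV GFP and 3.74 ± 0.38 in Ad CMV 3xFlag-*Esrrg* (SD, n = 3 each), without overlap, although 46.5% of *NUBP1* exon bases lie in genes on the opposite strand and the strand setting of the counting is not given in the sources used here.

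The targeting complex hands finished clusters to their enzymes. Its core, *CIAO1*, had 98.96, 104 and 100.5 CPM in Ad CMV GFP and 148, 191 and 194 CPM in Ad CMV 3xFlag-*Esrrg*, a log2 fold change of 0.82 ± 0.12 (adjusted p = 3.1e-04). *MMS19*, the adaptor for DNA repair and replication enzymes, had 85.5, 85.4 and 85.9 CPM against 108, 127 and 137 CPM. It stayed under 1.5-fold at 0.54 ± 0.10 (adjusted p = 0.0018), with every Ad CMV 3xFlag-*Esrrg* library above every control.

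*CIAO2A*, the subunit known for maturing the iron regulatory protein IRP1, had 29.5, 29.03 and 30.03 CPM in Ad CMV GFP and 44.7, 70.9 and 70.8 CPM in Ad CMV 3xFlag-*Esrrg*, and rose by 1.07 ± 0.16 (adjusted p = 4.0e-04). *CIAO2B*, the subunit that works with the adaptor, had 29.4, 34.2 and 31.6 CPM against 37.1, 59.95 and 66.7 CPM and rose by 0.78 ± 0.18 (adjusted p = 0.0051), but its log2 fold change was -0.034 in the fit with the unassigned share as covariate. *CIAO3*, which joins scaffold and targeting complex, had 10.3, 10.7 and 10.8 CPM against 14.96, 18.8 and 20.9 CPM and rose by 0.78 ± 0.13 (adjusted p = 8.6e-04). After correction for GC content and length its log2 fold change was 0.35 and the call was lost, and 21.6% of its exon bases lie in a gene on the opposite strand.

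In heme synthesis 3 of 8 genes (37.5%) were higher and 0 lower, against 25.9% and 12.4% of protein-coding genes, with a median log2 fold change of 0.44. *ALAS1* (chr3:52198086-52214327), the first and rate-limiting enzyme outside red cells, had 32.4, 40.7 and 40.2 CPM in Ad CMV GFP and 70.02, 101 and 109.6 CPM in Ad CMV 3xFlag-*Esrrg*. It rose by 1.31 ± 0.16 (adjusted p = 1.5e-04), with all 3 Ad CMV 3xFlag-*Esrrg* libraries above the control range. *ALAD*, the next enzyme, had 25.1, 27.00 and 24.9 CPM against 23.3, 23.6 and 28.1 CPM. Its groups overlapped, at -0.04 ± 0.11 (adjusted p = 0.78), and the sign turned under other scalings (0.042 with DESeq2). The ratio of *ALAS1* to *ALAD* counts was 1.47 ± 0.16 in Ad CMV GFP and 3.73 ± 0.66 in Ad CMV 3xFlag-*Esrrg* (SD, n = 3 each), without overlap.

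The middle of the pathway contributed the other called genes. *UROS*, which closes the porphyrin ring, had 46.6, 51.2 and 51.7 CPM in Ad CMV GFP and 68.04, 89.7 and 94.3 CPM in Ad CMV 3xFlag-*Esrrg*, and rose by 0.75 ± 0.13 (adjusted p = 7.7e-04). *UROD*, which trims its side chains, had 29.5, 33.5 and 31.5 CPM against 50.1, 81.04 and 92.3 CPM and rose by 1.24 ± 0.19 (adjusted p = 4.4e-04). Both were higher in every Ad CMV 3xFlag-*Esrrg* library than in any control.

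The last enzymes of the pathway were not called in the reported fit. *CPOX* had 16.7, 17.5 and 17.9 CPM in Ad CMV GFP and 17.02, 22.3 and 24.2 CPM in Ad CMV 3xFlag-*Esrrg*, with overlap, at 0.29 ± 0.13 (adjusted p = 0.095). *PPOX* had 15.3, 16.4 and 15.4 CPM against 16.7, 20.5 and 23.2 CPM at 0.36 ± 0.13 (adjusted p = 0.038), and 26.2% of its exon bases lie in genes on the opposite strand. *FECH*, the ferrochelatase that inserts iron, is itself an iron-sulfur protein and had 58.4, 58.03 and 59.4 CPM against 66.4, 92.5 and 92.9 CPM. It did not overlap between groups and was close to the cutoff at 0.52 ± 0.13 (adjusted p = 0.0072), and it was called in 6 of 15 other fits, among them DESeq2 (0.602), the GC and length correction (0.71) and the fit without replicate 2 of Ad CMV 3xFlag-*Esrrg* (0.77). *ABCB10*, a transporter of the inner mitochondrial membrane tied to heme synthesis in red cell precursors, had 30.9, 32.04 and 28.5 CPM against 29.4, 27.7 and 27.7 CPM, a log2 fold change of -0.11 ± 0.09 (adjusted p = 0.35). No erythroid marker reached 10 counts in all libraries, and the summed level of the 6 markers was 0.248 to 0.356 CPM in Ad CMV GFP and 0.299 to 0.411 CPM in Ad CMV 3xFlag-*Esrrg*.

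**Figure D3:**
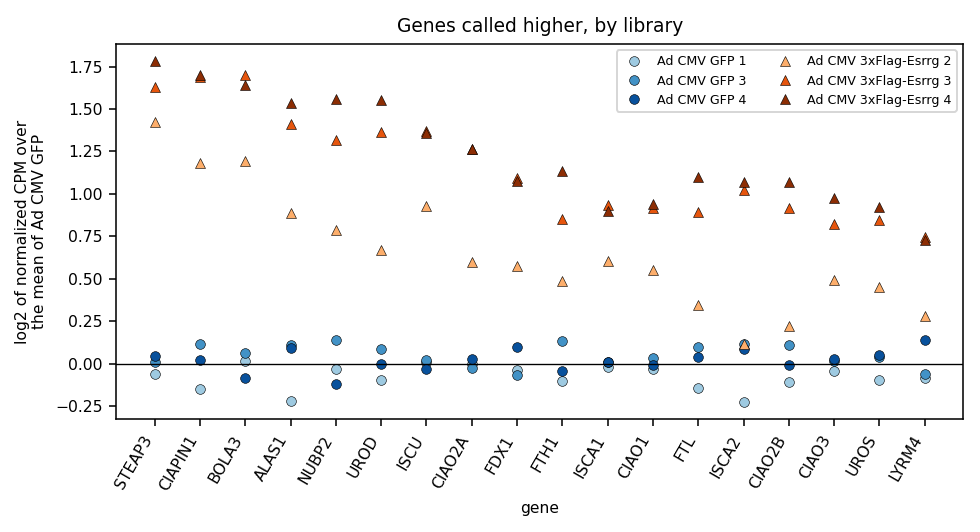
Log2 of normalised CPM over the mean of the 3 Ad CMV GFP libraries for the 18 called genes, with 1 point per library. Replicates 3 and 4 of Ad CMV 3xFlag-*Esrrg* have medians of 1.06 and 1.11 and replicate 2 a median of 0.587, and only for *ISCA2* does replicate 2 reach down to the control range.

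Among the genes of iron uptake, storage, export and control, 3 of 9 (33.3%) rose, against 25.9% of protein-coding genes, 0 were called lower by edgeR and 2 were lower at an adjusted p below 0.05 without reaching 1.5-fold. The largest change of all 35 was in *STEAP3* (chr2:119223831-119265652), the ferrireductase that reduces iron freed from transferrin in endosomes. It had 11.5, 12.1 and 12.4 CPM in Ad CMV GFP and 32.1, 37.1 and 41.2 CPM in Ad CMV 3xFlag-*Esrrg*, a log2 fold change of 1.62 ± 0.11 (adjusted p = 7.5e-06). Here replicate 2 of Ad CMV 3xFlag-*Esrrg* was much nearer to its partners than to the control. *SLC11A2*, the transporter DMT1 that carries the reduced iron out of endosomes, had 55.4, 52.4 and 53.05 CPM against 41.3, 37.8 and 37.3 CPM. Its log2 fold change was -0.47 ± 0.09 (adjusted p = 0.0018), below 1.5-fold but with every Ad CMV 3xFlag-*Esrrg* library under every control. The ratio of *STEAP3* to *SLC11A2* counts was 0.208, 0.230 and 0.233 in Ad CMV GFP and 0.776, 0.980 and 1.11 in Ad CMV 3xFlag-*Esrrg*. These genes had the highest and the lowest log2 fold change of the 35, so a wide gap follows from the choice of the pair.

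*TFRC*, the transferrin receptor that brings iron into the cell, had 176, 168 and 173 CPM in Ad CMV GFP and 242, 272 and 250.4 CPM in Ad CMV 3xFlag-*Esrrg*. Its groups did not overlap and its adjusted p was 8.0e-04, yet at 0.56 ± 0.09 it was just under 1.5-fold, and it was called in 6 of 15 other fits, among them DESeq2 (0.64), the GC and length correction (0.90) and the fit without replicate 2 of Ad CMV 3xFlag-*Esrrg* (0.71). *SLC40A1*, which encodes ferroportin, the only known iron exporter, had 14.05, 12.5 and 12.2 CPM against 17.3, 19.04 and 17.7 CPM. It was not called at 0.48 ± 0.11 (adjusted p = 0.0038), again with no overlap.

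Both ferritin subunits rose together. *FTL*, the light chain, had 842, 995 and 957 CPM in Ad CMV GFP and 1182, 1726 and 1993 CPM in Ad CMV 3xFlag-*Esrrg*, a log2 fold change of 0.81 ± 0.18 (adjusted p = 0.0039). *FTH1*, the heavy chain that oxidises iron for storage, had 128, 151 and 134 CPM against 193, 249 and 302 CPM, a log2 fold change of 0.85 ± 0.15 (adjusted p = 0.0011). The ratio of *FTL* to *FTH1* counts was 6.77 ± 0.34 in Ad CMV GFP and 6.55 ± 0.41 in Ad CMV 3xFlag-*Esrrg* (SD, n = 3 each), and the groups overlapped. Thus of the 4 genes whose hairpins are shown above, the ferritin pair with sites in the 5′ UTR was called, while *SLC40A1*, also with a 5′ site, and *TFRC*, with 3′ sites, had fitted folds of 1.40 and 1.48 and were not called here, though *TFRC* was in 6 and *SLC40A1* in 3 of 15 other fits. The counts of *FTH1* are uncertain because 63.2% of its exon bases lie in a gene on the opposite strand and because 17 of its 25 annotated processed pseudogenes had counts, equal in sum to 4.06% to 11.8% of its own, whereas for *FTL* 7 of 16 had counts, in sum at most 0.265%.

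None of the 3 genes that sense iron or release it from ferritin was called in either direction. *IREB2*, which encodes the iron regulatory protein IRP2, had 163, 148 and 149.7 CPM in Ad CMV GFP and 150.5, 148 and 140.5 CPM in Ad CMV 3xFlag-*Esrrg*, at -0.07 ± 0.09 (adjusted p = 0.55). *FBXL5*, the iron-sensing ligase subunit that marks IRP2 for breakdown, had 69.2, 69.6 and 71.6 CPM against 50.4, 61.3 and 57.8 CPM. It was lower in every Ad CMV 3xFlag-*Esrrg* library at -0.31 ± 0.10 (adjusted p = 0.023), under the 1.5-fold cutoff. That adjusted p did not hold with DESeq2 (-0.23, DESeq2 adjusted p = 0.15). In edgeR it was also missed after correction for GC and length (-0.10, adjusted p = 0.44). The same held without replicate 2 of Ad CMV 3xFlag-*Esrrg* (-0.13, adjusted p = 0.13), whereas library size as the only scaling gave -0.64. *NCOA4*, the receptor that takes ferritin to lysosomes, had 146, 143 and 144 CPM against 119.8, 151 and 145 CPM, with overlap, at -0.06 ± 0.11 (adjusted p = 0.67). The signs for *IREB2* and *NCOA4* turned with DESeq2 (0.0072 and 0.024). The ratio of *FTH1* to *NCOA4* counts went from 0.955 ± 0.091 to 1.78 ± 0.26 (SD, n = 3 each).

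Per kilobase of annotated exon, the control levels ranged widely. *FTL* was highest, with a mean of 1069 CPM per kilobase in Ad CMV GFP, followed by *FTH1* at 68.7 and *NCOA4* at 36.2. At the other end stood *IBA57* at 1.68, *CIAO3* at 1.31 and *BOLA3* at 0.937 CPM per kilobase. The highest and the lowest gene were thus both among those called higher, and *BOLA3* remained low in Ad CMV 3xFlag-*Esrrg* at 2.704 CPM per kilobase.

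The calls were compared over 15 other fits, which differed in scaling, filter, tool, block or the libraries used. Of the 18 called genes, 9 kept their call in all 15, namely *ISCU*, *FDX1*, *BOLA3*, *NUBP2*, *CIAO2A*, *CIAPIN1*, *ALAS1*, *UROD* and *STEAP3*. *ISCA1*, *CIAO1*, *UROS*, *FTH1* and *FTL* lost it, among these 15, only with library size as the sole scaling. The other 4 were *LYRM4*, *ISCA2*, *CIAO2B* and *CIAO3*, each lost in at least 2 fits. The fit with the unassigned share as covariate stands outside these 15 and cannot tell that share from the virus. It kept 5 calls, those of *ISCU*, *BOLA3*, *CIAPIN1*, *ALAS1* and *STEAP3*. Of the 9 genes above it lost *FDX1* (0.42), *NUBP2*, *CIAO2A* (0.40) and *UROD*. It also lost the other 4 and *ISCA1* (0.51), *CIAO1* (0.43), *UROS* (0.30), *FTH1* (0.299) and *FTL* (0.12, adjusted p = 0.56).

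**Figure D4:**
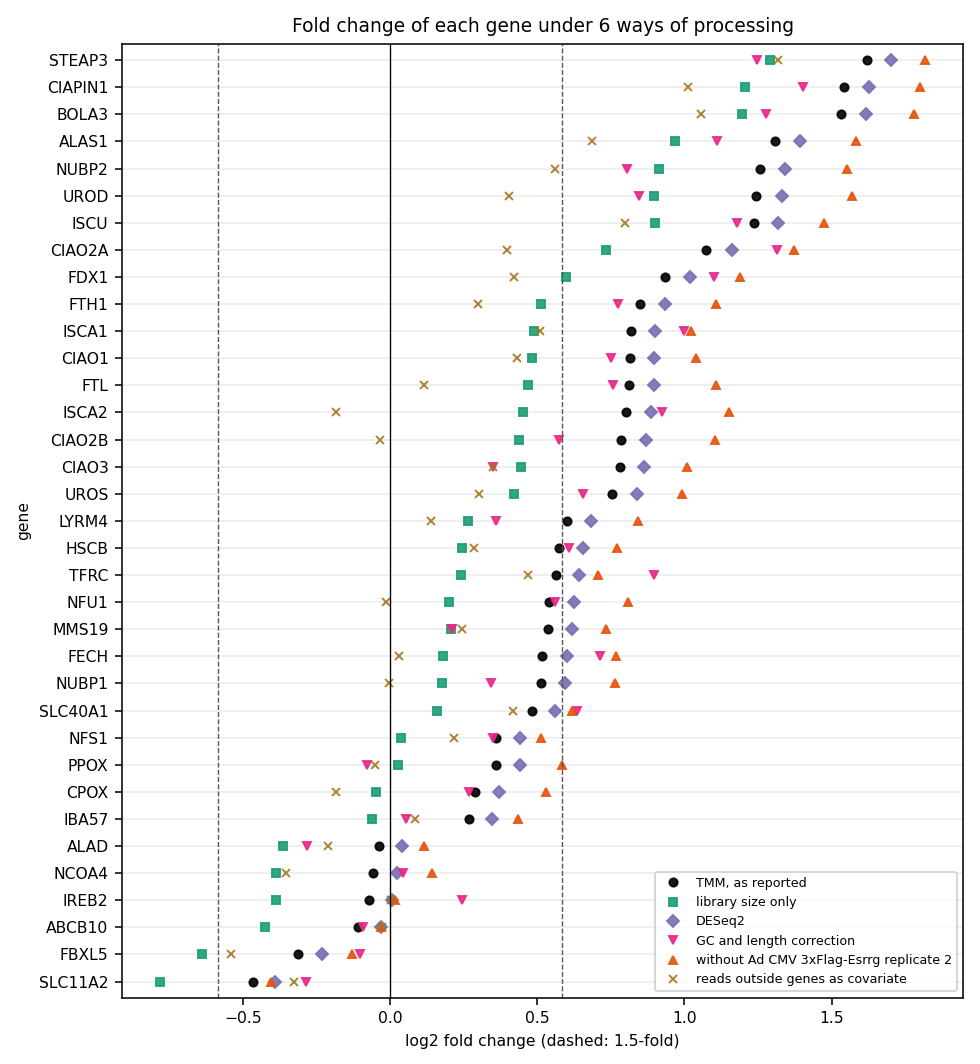
Log2 fold change of each tested gene under 6 ways of processing, with dashed lines at 1.5-fold in either direction. Values with library size as the only scaling lie to the left (median 0.27) and those without replicate 2 of Ad CMV 3xFlag-*Esrrg* to the right (median 0.84) of the reported ones (median 0.60).

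Promoters were searched for letters that nuclear receptors and related factors are known to bind, in the RefSeq window from 250 bases before to 50 after each start, on both strands (GRCh38.p14). A window was found for 33 of the 36 genes. The ERR response element TNAAGGTCA occurred in 0 of 33, against 0.638% of 15843 protein-coding promoters. Letters this rare would be missing from most sets of 33 windows, so the 0 does not set these genes apart. Sites outside the windows were not searched. The NRF1 motif, for a factor known to control respiratory genes, occurred in 5 of 33 (15.2%) against 8.58% of all. Among those 5 were *ISCU* and *ALAS1*, which rose, and *NUBP1*, *NCOA4* and *FBXL5*, which were not called. The antioxidant response element TGACNNNGC occurred in 3 (*ISCU*, *FECH* and *FBXL5*), 9.09% against 14.3% of all. The windows of *ISCU* and *ALAS1* and, for contrast, of *NCOA4* and *FBXL5* are shown, 50 bases each in the direction of the gene, with the motif on either strand in capitals.
*ISCU*, chr12:108562486-108562535, plus strand: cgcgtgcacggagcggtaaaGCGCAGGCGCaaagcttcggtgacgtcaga
*ALAS1*, chr3:52198054-52198103, plus strand: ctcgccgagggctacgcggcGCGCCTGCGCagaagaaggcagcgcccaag
*NCOA4*, chr10:46030707-46030756, minus strand: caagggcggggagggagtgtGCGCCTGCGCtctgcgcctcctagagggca
*FBXL5*, chr4:15655357-15655406, minus strand: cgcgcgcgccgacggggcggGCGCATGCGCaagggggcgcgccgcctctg
The same letters were thus present in genes that were called and in genes that were not, and a match is a description of sequence, not a bound site.

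The proteins that use these cofactors were read from 5 further lists drawn from textbook knowledge. Of 12 mitochondrial iron-sulfur proteins tested, 6 (50%) rose and 0 fell, with a median log2 fold change of 0.64. Among protein-coding genes, 25.9% were called higher and 12.4% lower. *NDUFS8*, a cluster-bearing subunit of complex I, rose by 1.55 ± 0.17, from 25.5, 28.1 and 29.5 CPM to 57.9, 87.3 and 98.1 CPM, and *UQCRFS1*, the Rieske protein of complex III, by 1.51 ± 0.17. *BOLA3*, at the upper end of mitochondrial assembly, had 1.53.

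The iron-sulfur proteins of cytosol, nucleus and endoplasmic reticulum gave 4 of 18 (22.2%) higher, 1 lower and a median of 0.15, where 17.3% of all genes and 25.9% of protein-coding genes were called higher. *NTHL1*, a DNA glycosylase, rose by 1.41 ± 0.18, the monothiol glutaredoxin *GLRX3* by 0.86 ± 0.15, and *POLD1*, the catalytic subunit of DNA polymerase delta, by 0.71 ± 0.16. *BRIP1*, a DNA repair helicase, fell with a log2 fold change of -0.64 ± 0.11. The cytosolic assembly genes had a median of 0.80, and the difference between these 2 medians was not tested.

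Heme handling beyond synthesis gave 10 of 16 (62.5%) higher and 0 lower, against 25.9% and 12.4% of protein-coding genes, with a median of 0.71. *SLC25A39*, a mitochondrial carrier, rose by 1.604 ± 0.17, *HCCS*, which attaches heme to cytochrome c, by 1.21 ± 0.17, and *HMOX1*, the inducible heme oxygenase, by 1.01 ± 0.20. Among heme proteins 7 of 10 (70%) rose and 0 fell, against the same shares of protein-coding genes, with a median of 0.77. *CYGB*, cytoglobin, rose by 2.17 ± 0.16, *CYC1*, cytochrome c1, by 2.12 ± 0.19, and *CYCS*, cytochrome c, by 1.27 ± 0.11. For the counts of 0 lower, an unadjusted p below 0.05 with a negative sign was reached by 1 mitochondrial iron-sulfur gene and by 0 genes of either heme list. Of the 13746 protein-coding genes, 3498 reached it.

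Of the other genes of iron handling, 3 of 14 (21.4%) were called higher and 4 (28.6%) lower, with a median of 0.21. The share called higher was near the 17.3% of all genes and below the 25.9% of protein-coding genes. The share called lower stood against 16.8% and 12.4%. *PCBP1*, an iron chaperone, rose by 1.15 ± 0.21, *SLC39A8*, a metal importer, by 0.86 ± 0.10, and the lysosomal channel gene *MCOLN1* by 0.73 ± 0.16. By contrast *STEAP4*, a ferrireductase of the same family as *STEAP3*, fell from 12.3, 13.6 and 11.8 CPM to 6.55, 3.68 and 3.02 CPM, a log2 fold change of -1.52 ± 0.24 (adjusted p = 5.1e-04). *CYBRD1*, the ferrireductase of iron uptake in the gut, also fell, from 67.1, 59.4 and 64.5 CPM to 35.5, 32.9 and 34.5 CPM, at -0.89 ± 0.09 (adjusted p = 6.4e-05). *CP*, the ferroxidase ceruloplasmin, fell with -0.81 ± 0.30 (adjusted p = 0.048), from 2.13, 2.26 and 2.87 CPM to 2.06, 1.37 and 0.792 CPM, so that replicate 2 of Ad CMV 3xFlag-*Esrrg* lay just under the lowest control.

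**Figure D5:**
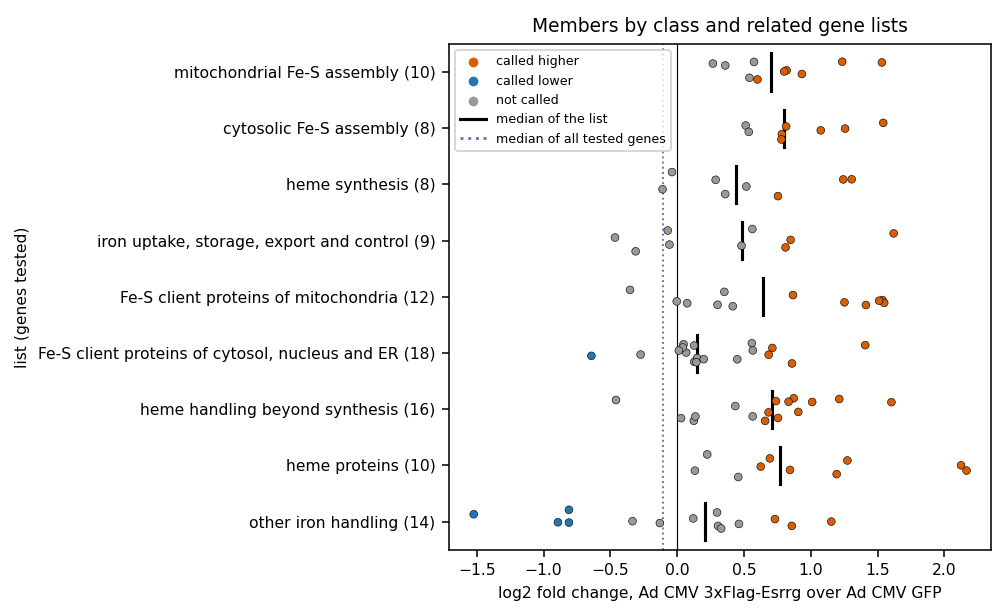
Log2 fold change of each tested gene in the 4 classes described above and in the 5 related lists, with a bar at each list's median and a dotted line at the median of all genes tested (-0.10). List medians run from 0.15 for iron-sulfur proteins outside mitochondria to 0.80 for cytosolic assembly, and other iron handling holds 4 of the genes called lower.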

How the data were processed

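Total RNA of 6 SH-SY5Y libraries was sequenced. Per the labels, the submitters' processing notes name CASAVA, Trim Galore 0.6.7, STAR 2.7.9a, HTSeq 0.11.3, DESeq2 and GRCh38. The annotation release and the strand setting of the counting are not given in the sources used here. The authors deposited raw gene counts, unnormalised, for 67060 genes and 5 summary rows (reads outside genes, ambiguous reads and the like), which were kept out of library sizes and tests. Reads outside genes took 29.5% to 52.2% of a library, reads overlapping more than 1 gene 4.55% to 9.84% and reads aligned to several places 7.16% to 13.0%. Gene identifiers were matched to GENCODE 44 (60419, 90.1%).

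Counts were filtered with filterByExpr (24500 genes), scaled by TMM and fitted with edgeR 4.0.16 quasi-likelihood (R 4.3.3), 3 libraries against 3, without a block, with Benjamini-Hochberg adjustment over all 24500 genes. A call needed adjusted p below 0.05 and at least 1.5-fold. The procedure was tested on simulated data, where it recovered 99 of 100 changes of 2-fold and 73 of 100 of 1.6-fold, with 3 false calls. Every simulated gene had the same spread and no library stood apart, unlike the data here. Sequences came from GRCh38 with GENCODE 44 and from RefSeq promoter windows (GRCh38.p14). The 36 genes, the related lists, the marker lists and the tests were chosen with earlier results of these data known. Named were all 36 genes, *ESRRG* and, per related list, the 3 called genes that changed most each way and had a mean of at least 50 counts, of which 1 is not reported here. Alternatives were DESeq2 1.42.0, RLE or library-size scaling, no filter, a minimum of 10 counts, protein-coding genes only, a GC and length correction (mgcv 1.9.3), a replicate block, other fold cutoffs and each library left out. Total gene counts were 24969759 to 40859666 per library, and 3 counts corresponded to 0.0881 to 0.112 CPM, which covers counting error only. Replicate libraries differed from each other by more than sampling noise, and each counted as 1.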

Additional observations from a re-analysis of the deposited data

Results flagged for a closer look

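Reads that could not be given to a single gene lie outside the gene rows compared above, and their shares were higher with Ad CMV 3xFlag-*Esrrg* in all 3 libraries. Reads that overlapped more than 1 gene made up 5.69%, 9.84% and 9.79% of replicates 2, 3 and 4 of Ad CMV 3xFlag-*Esrrg*, against at most 4.87% in any Ad CMV GFP library. Reads aligned to several places made up 9.33%, 12.7% and 13.0% of the same libraries, against at most 7.41% in any Ad CMV GFP library. Among the genes above, *FDX2* had 73.4% of its exon bases shared on the same strand, and 17 annotated processed pseudogenes of *FTH1* had counts. How many such reads belonged to any of these genes is not known from the table, and the effect on their values was not tested.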

How the results depend on the processing

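DESeq2 and relative log expression size factors each called 24 of the 35 genes higher, no filter 18, a minimum of 10 counts in every library 17 and the GC and length correction 19, against 18 as reported. Over all genes these fits called, in the same order, 19.3%, 19.6%, 10.9%, 18.1% and 15.2% higher, against 17.3% as reported. Protein-coding genes alone gave 17 higher and 1 lower (*SLC11A2*), where 20.5% and 17.95% of all genes in that fit were called. Library size as the only scaling, which moved the median of all genes from -0.10 to -0.42 and the calls over all genes to 8.98% higher and 30.9% lower, gave 9 higher, 2 lower (*FBXL5* and *SLC11A2*) and a median of 0.27. A 2-fold cutoff left 8 higher, a test against 1.5-fold left 10, and with no fold cutoff 27 were higher and 2 lower. The shares of all genes called higher were 7.97%, 9.01% and 24.3% in that order, with 23.5% lower under no fold cutoff. A covariate for the share of reads outside genes, chosen after seeing the data, left 5 higher and a median of 0.24. That fit called 7.24% of all genes higher, and it cannot tell the share from the virus. Leaving out 1 library gave 16 to 25 higher and medians of 0.53 to 0.84, while 14.6% to 22.9% of all genes were called higher. The upper ends came without replicate 2 of Ad CMV 3xFlag-*Esrrg*. The cause of these differences was not tested.

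Signs turned for genes that were not called, and for 2 called genes only with the covariate. *ALAD* was 0.042 with DESeq2 and with relative log expression and -0.12 to 0.12 with 1 library left out. *CPOX* was -0.048 with library size only and -0.18 with the covariate, and *IBA57* was -0.060 with library size only. *IREB2* was 0.0072 with DESeq2, 0.0071 with relative log expression, 0.25 after correction for GC and length, 0.0029 with the covariate and -0.095 to 0.016 with 1 library left out. *NCOA4* was 0.024 with DESeq2 and relative log expression, 0.044 after correction for GC and length and -0.12 to 0.14 with 1 library left out. *PPOX* was -0.078 after correction for GC and length and -0.052 with the covariate. The covariate also gave *CIAO2B* -0.034, *ISCA2* -0.18, *NFU1* -0.012 and *NUBP1* -0.0027.

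The replicate numbers gave no sign of pairing, since the deviations of same-numbered libraries correlated at 0.075 and -0.00010. Differently numbered libraries gave -0.131 to 0.139. With only numbers 3 and 4 shared between groups, these values cannot exclude pairing. With the replicate block 23 genes were higher and the median was 0.71, and with block plus GC and length correction 21 and 0.74. Over all genes these fits called 19.4% and 17.45% higher, in that order. In the block fits *NCOA4* was 0.044 and 0.16 and, with the correction, *IREB2* 0.32, *FBXL5* 0.0010 and *PPOX* -0.052.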
